A study of Mus musculus with 71 samples.

Results

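The loss of miR-92a-1 from the embryonic mouse heart was examined on a background that already lacks the miR-17 and miR-18 members of the miR-17~92 cluster. Heart libraries of Δ17,18,92 (3 libraries) were set against heart libraries of Δ17,18 (3 libraries), which are 6 of the 71 libraries in the series, chosen by their titles. The Δ17,18,92 allele deletes the miR-17 family members of the cluster (miR-17 with miR-20a), its miR-18 member (miR-18a) and miR-92a-1, and the Δ17,18 allele deletes the same except for miR-92a-1. Both alleles keep miR-19a and miR-19b-1 of the same cluster. A further pair of heart groups served as the same loss on an otherwise intact cluster: Δ92, which lacks miR-92a-1 alone (3 libraries), and wild type (3 libraries). The full series covers 8 genotypes at the miR-17~92 locus and 3 dissected tissues: heart, tail bud and the rest of the embryo. All embryos were C57BL/6 at embryonic day 9.5 with 20 to 22 somites. RNA was taken from the dissected tissue in TRIZOL and read as single reads of 50 bases. The deletions are in the germline of the embryo and not confined to one cell type, and the labels do not say how many embryos or litters a library holds.

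MicroRNAs pair through their seed, bases 2 to 8 of the mature strand, with matching sites that lie mostly in the 3′ untranslated region (3′UTR) of messenger RNAs, and lower the stability and translation of those messages. The miR-17~92 cluster gives rise to microRNAs of several seed families from 1 primary transcript, Mir17hg, and is needed for normal development of heart, lung and B cells in the mouse. miR-92a belongs to an old family with miR-25, miR-32, miR-363 and miR-367, and is known in endothelial cells as a repressor of the integrin gene Itga5.

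The mature sequences are shown because the deleted and retained members differ in their seeds, and because genes elsewhere in the genome carry the seed that the deletion removes. Capitals mark the seed. Sequences are those of RefSeq for GRCm38.p6, 5′ to 3′.
miR-92a-3p: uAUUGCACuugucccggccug
miR-25-3p: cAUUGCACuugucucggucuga
miR-32-5p: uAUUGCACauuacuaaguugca
miR-363-3p: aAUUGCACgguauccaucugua
miR-17-5p: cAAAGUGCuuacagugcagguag
miR-18a-5p: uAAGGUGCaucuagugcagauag
miR-19b-3p: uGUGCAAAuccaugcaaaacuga
The first of these shares its seed with the next 3, whose genes are on chromosomes 5, 4 and X, and the same mature miR-92a is also encoded by a second gene on chromosome X. None of those genes was deleted, so the seed itself was not removed from the embryo. miR-17 and miR-18a are absent from both groups compared, and the miR-19 seed is present in both.

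A full match to the miR-92 seed with an A opposite base 1, called an 8mer here, reads GTGCAATA in DNA letters, and the same without that A, GTGCAAT, is a 7mer-m8. Sites are shown for 7 of the genes that rose in Δ17,18,92 hearts, with 30 bases each and the 8mer in capitals, from GENCODE M21 on GRCm38.
Dkk3: gctgagtcactggtagatGTGCAATAgaaa
Gpr180: gaaccagtgaatggagaaGTGCAATAggat
Pkdcc: atgtgaccaggacaaaacGTGCAATAtgca
Rpl15: tgaaaatgtagaagttaaGTGCAATAattg
Fndc3b: taactttaagagggcattGTGCAATAgtta
Itga5: atttaaactctgttgcaaGTGCAATAaacc
1700020I14Rik: taaacaaaaacgggatatGTGCAATAtata
The Dkk3 site lies at chr7:112118174-112118181 on the minus strand, at bases 30 to 37 of a 3′UTR of 2194 bases. That of Gpr180 is at chr14:118162785-118162792 on the plus strand, at bases 38 to 45 of a 3′UTR of 514 bases. Those of Pkdcc, Rpl15 and Fndc3b are at chr17:83224399-83224406 (plus), chr14:18268876-18268883 (minus) and chr3:27418564-27418571 (minus), each in the 3′UTR. The Itga5 site, at chr15:103344315-103344322 on the minus strand, lies at bases 947 to 954 of a 3′UTR of 983 bases. 1700020I14Rik is a long noncoding RNA, and its match at chr2:119602065-119602072 (plus) is in a transcript with no coding region. Of all tested genes with a 3′UTR, 2.76% hold an 8mer of miR-92, and a match is a description and not proof of a site in use.

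The deposited table gives whole read counts for 37620 genes, and the 6 libraries held 15636947 to 27477273 counts each. Levels are given as CPM, the count of a gene scaled to a fixed library total and computed here from those counts. The hearts carried sarcomere RNA. The list of sarcomere and cardiomyocyte genes summed to 122654 CPM in Δ17,18 replicate 2 and to 54464 to 56322 CPM in the other 5 libraries. In each library this was the largest sum of any gene list examined. No member was at 0 in all 6 libraries, but this held for every gene list and so does not mark heart tissue. One library stood apart. Δ17,18 replicate 2 held 71405 CPM of Ttn, the giant sarcomere protein titin, against 4081 to 7658 CPM in the other 5 libraries, or 6.33% of its counts against 0.415% to 0.764%. Its counts differed from those of its replicates by a chi-square per degree of freedom of 118 and 130, against 5.83 to 27.5 for all other heart pairs. The total numbers of calls and the calls of many named genes are therefore given with and without it. Counts and medians for gene lists, seed matches, chromosomes and transcript lengths include it unless stated.

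At the locus, the primary transcript was higher in Δ17,18,92 than in Δ17,18. Mir17hg (chromosome 14, 115042879 to 115046727 on GRCm38) stood at 119, 149.8 and 132 CPM in the 3 Δ17,18,92 hearts, against 77.1, 75.7 and 74.6 CPM in the Δ17,18 hearts. Every Δ17,18,92 library was above every Δ17,18 library, and Mir17hg had the largest increase of all genes called. The log2 fold change was 0.82 ± 0.08 (SE), with an edgeR quasi-likelihood p of 1.17e-06 after Benjamini-Hochberg adjustment over the 16750 genes tested, the measure called adjusted p from here on. The hairpin genes themselves had no counts in heart, and the table does not say where in Mir17hg its reads lie relative to the deletions, so the host transcript does not check the labels. The other 2 genotypes give the scale, with 43.4 to 58.5 CPM in Δ92 and 38.1 to 42.1 CPM in wild type. Of 3 tested host genes of other microRNAs with the miR-92 seed, edgeR called 0, with 1 at an unadjusted p under 0.05 and 1 called by DESeq2.

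Across all genes, losing miR-92a-1 on top of miR-17 and miR-18 gave small increases in a limited set of messages, and fewer decreases. At an adjusted p under 0.05, 80 genes rose in Δ17,18,92 hearts, 0.478% of those tested, and 36 fell, 0.215%. The increases were modest, with log2 fold changes from 0.17 to 0.82 and a median of 0.29. The decreases ran from −3.20 to −0.23 with a median of −0.42. The 3 libraries of one group lay wholly beyond the other group in all 80 genes that rose and in 35 of the 36 that fell. Over all genes tested the groups did not overlap in 17.2% (9.34% higher and 7.89% lower in Δ17,18,92), and since calls are made on the same values no more is read from this. The numbers of calls depend strongly on single libraries. Leaving out Δ17,18 replicate 1, 2 or 3 left 200, 25 or 41 higher and 177, 6 or 20 lower genes. Without Δ17,18,92 replicate 1, 2 or 3 there were 153, 41 or 47 higher and 69, 9 or 18 lower. All 116 genes kept their sign in each of these 6 fits, and 22 of the 80 higher and 2 of the 36 lower genes kept their call in all 6, so the genes described first are those. Fitted on the 6 libraries alone, without the other heart genotypes, 7 of the 80 higher genes (Mir17hg, 1700020I14Rik, Dkk3, Gpr180, Uggt2, Ptk2b and Pros1) and 4 of the 36 lower genes (Phyhip, Mapk8ip1, Dzip1 and Igfbpl1) kept their call.

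Messages with a miR-92 8mer made up a large share of the increases. Of the 80 genes that rose, 74 have an annotated 3′UTR, and 27 of these hold an 8mer, or 36.5%, against 2.76% of all tested genes with a 3′UTR. Of the 36 that fell, 1 holds one. Of the 27, 10 kept their call whichever library was left out, as did 12 of the 53 increases without an 8mer. Without Δ17,18 replicate 2, 25 genes rose, of which 10 hold an 8mer.

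Dkk3, which encodes a secreted glycoprotein of the Dickkopf family, changed most among them. It stood at 189, 183 and 188 CPM in Δ17,18,92 and at 114, 125 and 125 CPM in Δ17,18, so the groups were far apart for their spread. Its log2 fold change was 0.62 ± 0.07 (adjusted p = 8.96e-06). Gpr180, which encodes an integral membrane protein, stood at 29.2, 29.2 and 28.6 CPM in Δ17,18,92 against 20.0, 19.5 and 17.2 CPM in Δ17,18 (0.62 ± 0.09, adjusted p = 0.000253). Fndc3b, an endoplasmic reticulum protein with fibronectin type III domains, had 215, 187 and 177 CPM in Δ17,18,92 against 129, 154 and 150.2 CPM in Δ17,18 (0.42 ± 0.07, adjusted p = 0.002). In both genes every Δ17,18,92 library was higher than every Δ17,18 library, with a narrower gap in Fndc3b. Rpl15, a protein of the large ribosomal subunit, had 74.5, 79.9 and 87.6 CPM in Δ17,18,92 against 68.3, 52.4 and 60.4 CPM in Δ17,18 (0.41 ± 0.07, adjusted p = 0.00183). Ribosomal protein genes have many near-identical pseudogene copies, and the handling of reads that map to several places is not given in the sources used here, so the Rpl15 level is uncertain.

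Smaller increases were found in other messages with an 8mer. Pkdcc, a secreted protein kinase, stood at 91.0, 85.2 and 81.0 CPM in Δ17,18,92 against 68.1, 71.2 and 69.2 CPM in Δ17,18 (log2 fold change 0.30 ± 0.05, adjusted p = 0.00102). Gxylt1, which adds xylose to sugars on the Notch receptor, had 88.9, 89.9 and 90.2 CPM in Δ17,18,92 and 71.2, 75.7 and 73.1 CPM in Δ17,18 (0.29 ± 0.05, adjusted p = 0.00168). Srpr, the receptor subunit that docks the signal recognition particle, had 107, 107 and 109.6 CPM in Δ17,18,92 and 93.5, 81.5 and 87.6 CPM in Δ17,18 (0.30 ± 0.05, adjusted p = 0.00198). None of these overlapped between the groups. Tor1aip1, an inner nuclear membrane protein that activates torsin, and Necap1, which acts in clathrin-mediated endocytosis, rose by 0.30 and 0.28 on the log2 scale. All 5 genes kept their call without any single library, and all 5 lost it when the 6 libraries were fitted alone (adjusted p of 0.0706 for Gxylt1 to 0.177 for Tor1aip1).

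The noncoding RNA 1700020I14Rik had the smallest p of all. It stood at 515, 506 and 518 CPM in Δ17,18,92 hearts, against 342, 342 and 335 CPM in Δ17,18 hearts. The means were 513 ± 6.53 and 339 ± 4.15 CPM (SD, n = 3 each), so the groups were far apart for their spread. The log2 fold change was 0.60 ± 0.05 (adjusted p = 4.56e-09), and the largest adjusted p with a library left out was 2.53e-07. It has no 3′UTR and so is not counted among the 27, though its transcript holds the 8mer shown above. That match lies at bases 2863 to 2870 of a transcript of 8300 bases. The share of genes with an 8mer given above is for 3′UTRs and not for whole transcripts.

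Itga5 and Tbx20 carry an 8mer too, and their calls were less steady. Itga5, the α5 subunit of the fibronectin receptor, had 363, 309.7 and 283 CPM in Δ17,18,92 and 239, 243 and 247 CPM in Δ17,18. The groups did not overlap, with a log2 fold change of 0.39 ± 0.09 and an adjusted p of 0.0466. That p was 0.084 without Δ17,18,92 replicate 1, 0.089 without replicate 2 and 0.026 without replicate 3, and 0.059, 0.20 and 0.089 without Δ17,18 replicates 1, 2 and 3. Tbx20, a T-box transcription factor of the developing heart, had 820.1, 726 and 809.8 CPM in Δ17,18,92 against 653, 640.0 and 652 CPM in Δ17,18. It rose by 0.28 ± 0.05 on the log2 scale (adjusted p = 0.0132), and the call ended without Δ17,18 replicate 2 (adjusted p = 0.089).

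**Figure D1:**
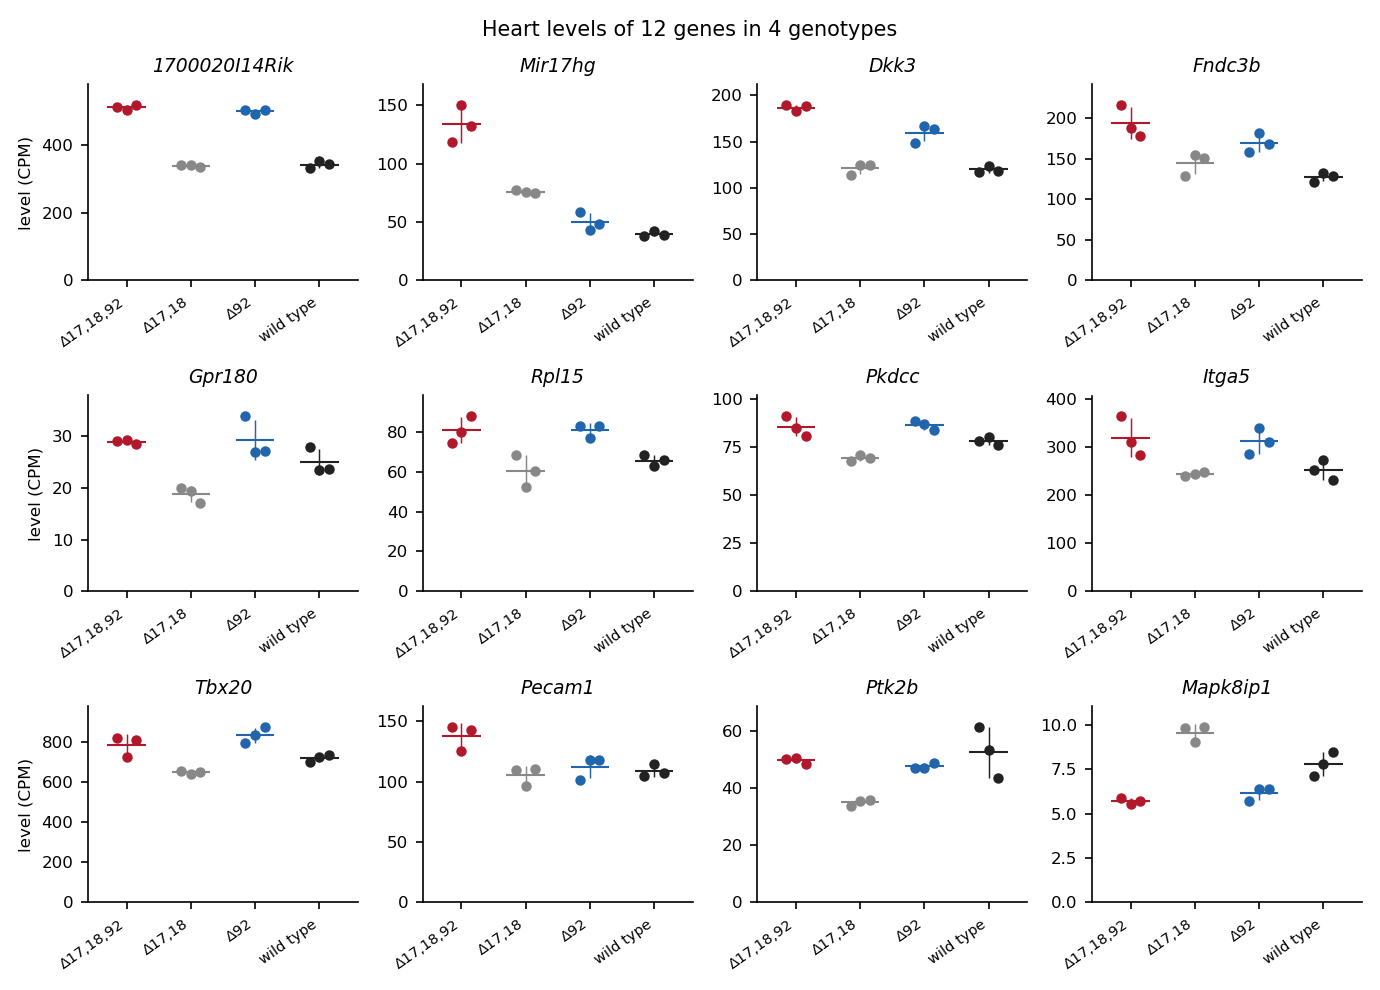
Heart levels in CPM of 12 genes in Δ17,18,92, Δ17,18, Δ92 and wild type; points are libraries, horizontal lines means and vertical lines 1 SD (n = 3 per genotype), each axis starting at 0. The noncoding RNA 1700020I14Rik sits at 506 to 518 CPM in the Δ17,18,92 libraries and at 335 to 342 CPM in the Δ17,18 libraries, while Mapk8ip1 runs the other way.

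The other 53 increases were in genes without a miR-92 8mer in a 3′UTR. Pecam1, an adhesion protein of endothelial cells, had 145, 126 and 143 CPM in Δ17,18,92 against 109, 96.4 and 111 CPM in Δ17,18 (log2 fold change 0.38 ± 0.07, adjusted p = 0.00278). Pros1, the anticoagulant protein S, had 24.1, 21.2 and 24.7 CPM in Δ17,18,92 against 15.4, 15.1 and 16.4 CPM in Δ17,18 (0.57 ± 0.09, adjusted p = 0.00122). Ptk2b, a focal adhesion tyrosine kinase, had 50.3, 50.6 and 48.6 CPM in Δ17,18,92 against 33.9, 35.5 and 36.0 CPM in Δ17,18 (0.50 ± 0.08, adjusted p = 0.00198). The groups did not overlap in any of the 3 genes, and each call held without any single library. Uggt2, of the family of enzymes that check glycoprotein folding, had 39.8, 40.0 and 35.5 CPM in Δ17,18,92 and 23.8, 27.6 and 22.1 CPM in Δ17,18 (0.66 ± 0.09, adjusted p = 0.000253). Myo1c, an unconventional myosin that works at membranes, had 257, 232 and 218 CPM in Δ17,18,92 and 187, 184 and 202 CPM in Δ17,18 (0.30 ± 0.05, adjusted p = 0.00122). Esd, an esterase, rose by 0.53 ± 0.10 and Ppp3cb, a catalytic subunit of the phosphatase calcineurin, by 0.24 ± 0.04, also whichever library was left out. Leprot, a protein of endosomal traffic, had 51.3, 49.1 and 51.1 CPM in Δ17,18,92 and 41.2, 41.2 and 41.4 CPM in Δ17,18 (0.29 ± 0.05, adjusted p = 0.00772). Ndufa5, a subunit of respiratory complex I, had 68.4, 73.9 and 78.2 CPM in Δ17,18,92 and 60.7, 60.6 and 59.2 CPM in Δ17,18 (0.29 ± 0.05, adjusted p = 0.00796). The groups did not overlap in either gene, and both calls held without any single library. Myo1c, Ppp3cb, Leprot and Ndufa5 fall outside the naming rule and were chosen after their values were seen. Aqp1, a water channel, and Gpr85, an orphan receptor, met the naming rule with 0.56 ± 0.12 and 0.62 ± 0.15, but each lost its call in 4 of the 6 fits, with adjusted p of up to 0.156 without Δ17,18 replicate 2 for Aqp1 and up to 0.219 without Δ17,18,92 replicate 3 for Gpr85.

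Few of the 36 decreases held across libraries. Of these 36, only Mapk8ip1 and Phyhip kept their call in all 6 fits that left out a library. Mapk8ip1, a scaffold of JNK signalling, had 5.88, 5.51 and 5.73 CPM in Δ17,18,92 and 9.79, 9.01 and 9.84 CPM in Δ17,18 (log2 fold change −0.74 ± 0.12, adjusted p = 0.00127). Phyhip, named after its values were seen because it fell furthest, had 0.219, 0.37 and 0.525 CPM in Δ17,18,92 against 3.89, 3.24 and 3.08 CPM in Δ17,18 (−3.20 ± 0.42, adjusted p = 0.000131). Here it is the Δ17,18 hearts that stand out, since Δ92 hearts held 0.447 to 0.647 CPM of Phyhip and wild-type hearts 0.212 to 0.908 CPM. The other 11 decreases that met the naming rule, among them genes for the GABA receptor subunit Gabra4, the transcription factors Nfatc2 and Zbtb16 and the actin regulator Carmil3, each lost their call in 3 to 5 of those 6 fits. The gene 4932438A13Rik is the one decrease with a miR-92 8mer, at 112, 111 and 101 CPM in Δ17,18,92 against 159, 117 and 146 CPM in Δ17,18 (−0.38 ± 0.08, adjusted p = 0.0282). That p was 0.078 and 0.15 without Δ17,18,92 replicates 2 and 3, and 0.063 and 0.099 without Δ17,18 replicates 1 and 3.

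Sorted by seed match, messages with a miR-92 8mer had the highest median change and the largest share of increases, 7.07%. The 382 tested genes with an 8mer had a median log2 fold change of 0.05, with 61.0% above 0, 27 that rose and 1 that fell. Genes with only a 7mer-m8 (661 genes) had a median of −0.002, with 6 higher and 1 lower, and the 9224 genes with no match of any of the 4 families had a median of 0.006, with 30 higher and 23 lower. A log2 fold change above 0.2 was found in 19.9% of the 8mer genes, 8.02% of the 7mer-m8 genes and 7.10% of those with no match. The median of all tested genes was −0.003. Among the 197 genes with a miR-92 8mer and no match of another family the median was 0.08, with 21 higher and 1 lower. In the 106 that also match miR-19, which both alleles retain, it was 0.005, with 2 higher. For the same genotypes in tail bud, such genes had a median of 0.09 (16 of 106 higher), beside 0.12 without another match (28 of 203). In the rest of the embryo the medians were 0.11 (17 of 107 higher) and 0.14 (49 of 204). The part of miR-19 in the heart value was not tested.

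For the seeds of the other families, whose cluster members are deleted in both groups or kept in both, the medians were below 0. The 618 genes with a miR-17 8mer had a median of −0.02 with 1 higher and 2 lower, the 238 with a miR-18 8mer −0.03 with 2 higher and 1 lower, and the 823 with a miR-19 8mer −0.006 with 2 higher and 3 lower. Per library, the mean log2 CPM of miR-92 8mer genes lay 0.926, 0.909 and 0.817 above that of genes without a match in Δ17,18,92, against 0.786, 0.826 and 0.800 in Δ17,18. The third Δ17,18,92 heart therefore lay among the Δ17,18 hearts by this measure, and it was also the lowest of its group for the miR-17, miR-18 and miR-19 matches. The difference in median between 8mer genes and genes with no match was 0.0431, and ran from 0.0237 without Δ17,18,92 replicate 1 to 0.0610 without replicate 3.

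**Figure D2:**
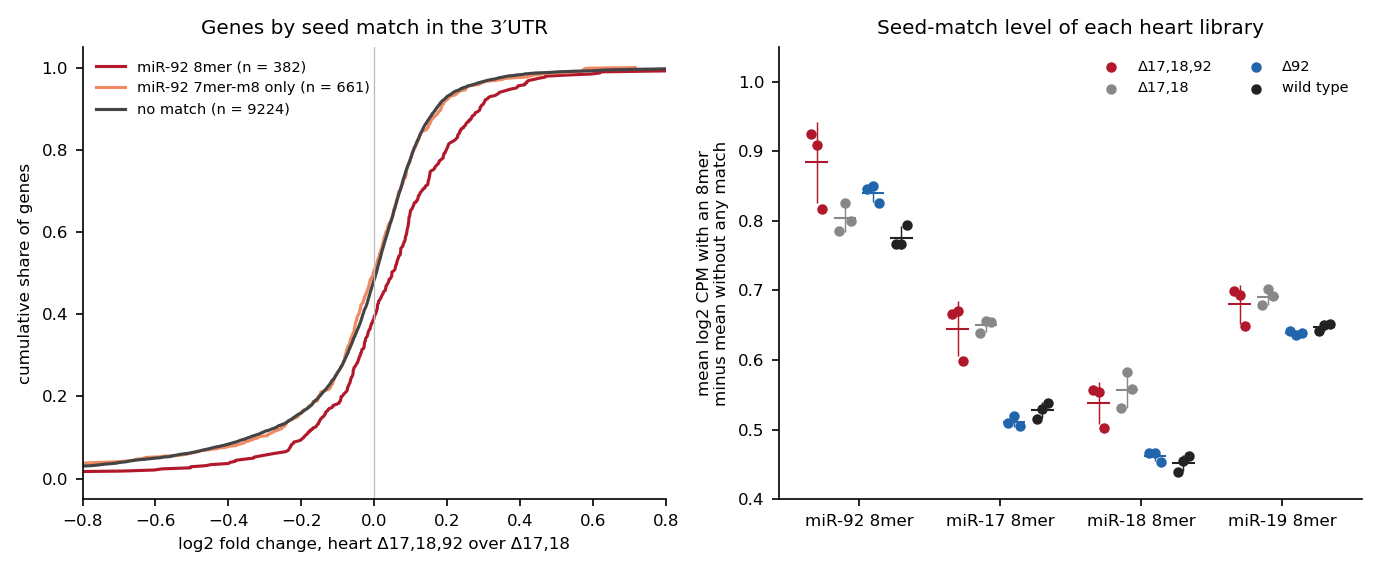
Left, the cumulative share of tested genes against the log2 fold change of Δ17,18,92 over Δ17,18 hearts, by type of miR-92 match in the 3′UTR. Right, the mean log2 CPM of genes with an 8mer of a family minus that of genes without any match. Points are the heart libraries of Δ17,18,92, Δ17,18, Δ92 and wild type, and lines the mean and 1 SD of 3 libraries. The 8mer curve lies to the right of the other 2, and 2 of the 3 Δ17,18,92 libraries lie above all Δ17,18 libraries for the miR-92 match.

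Lists of heart genes and of the cell types that a dissected heart can hold showed few calls. Of all 16750 genes tested, 2591 had an unadjusted p under 0.05 in this comparison. DESeq2 called 217 genes higher and 106 lower among 30244 genes with a count in any heart library. These are the backgrounds for such counts in every list. In the 21 tested sarcomere and cardiomyocyte genes edgeR called 0, with 9 at an unadjusted p under 0.05 and 1 called by DESeq2, and a median log2 fold change of 0.11. Of 20 cardiac transcription factors, Tbx20 rose by edgeR (median 0.03), and DESeq2 called 2. Of 21 genes of calcium handling and ion channels 4 had a value above 0 and 1 fell by edgeR, with a median of −0.09, and DESeq2 called 3. That gene was Cacna1d, an L-type calcium channel, at 104, 91.6 and 89.2 CPM in Δ17,18,92 and 112, 138 and 132 CPM in Δ17,18 (−0.42 ± 0.08, adjusted p = 0.0149). Its adjusted p was 0.07 and 0.076 without Δ17,18,92 replicates 2 and 3, and 0.13 and 0.064 without Δ17,18 replicates 2 and 3. Atp2a2, the calcium pump of the sarcoplasmic reticulum, stood at 0.03 ± 0.07.

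Of 20 messages reported elsewhere as miR-92 targets, 17 had a value above 0 and 1, Itga5, rose; the median was 0.08. In 8 of them all Δ17,18,92 libraries lay above all Δ17,18 libraries, against 9.34% of all tested genes, and in none did the reverse hold. Bcl2l11, a pro-apoptotic protein of the Bcl2 family, was one, at 34.9, 36.5 and 36.8 CPM in Δ17,18,92 against 30.8, 32.3 and 32.7 CPM in Δ17,18 (0.18 ± 0.09, adjusted p = 0.37). Hand2, a transcription factor of the right ventricle, was another, at 102, 105 and 107 CPM in Δ17,18,92 against 93.0, 96.2 and 90.2 CPM in Δ17,18 (0.17 ± 0.08, adjusted p = 0.352). Neither passed the test, nor did Cdkn1c (−0.10 ± 0.09) or Mylip (0.07 ± 0.12). Among 14 integrins, Itga5 rose by edgeR, with 5 at an unadjusted p under 0.05 and 2 called by DESeq2.

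Of 20 endothelial and endocardial genes, Pecam1 rose, with 15 of 20 above 0 and a median of 0.13. The summed level of this list was 2044, 1874 and 2028 CPM in Δ17,18,92, against 1977, 1556 and 1943 CPM in Δ17,18 and 1870 to 1972 CPM in wild type. The lowest sum is that of Δ17,18 replicate 2, and fewer cells of a type and less RNA per cell cannot be told apart in these bulk samples. The part of the endothelial share in the Pecam1 result was not tested. The neural list summed to 297.7, 268 and 217 CPM in Δ17,18,92 and to 303, 401 and 284 CPM in Δ17,18, with 0 of 7 tested members above 0 and none called (2 at an unadjusted p under 0.05, 0 by DESeq2). The erythroid list varied widely between libraries of one group, from 1244 to 4483 CPM in Δ17,18,92 and from 857.6 to 6762 CPM in Δ17,18, with no call among 12 genes (0 at an unadjusted p under 0.05, 0 by DESeq2). The 5 sex-linked genes, with none called (0 and 0), summed to 244, 262 and 1132 CPM in Δ17,18,92 and to 1273, 250.4 and 1289 CPM in Δ17,18, so 1 Δ17,18,92 library and 2 Δ17,18 libraries were high, and the part of this in the calls was not tested. In the epicardial list, 6 of 11 tested genes were above 0, with a median of 0.01, and 1 fell (2 at an unadjusted p under 0.05, 0 by DESeq2). The list summed to 176, 138 and 137 CPM in Δ17,18,92 and to 129, 166 and 133 CPM in Δ17,18. The gene that fell was Aldh1a2, which makes retinoic acid. Aldh1a2 had 1.02, 0.518 and 1.36 CPM in Δ17,18,92 against 1.97, 3.1 and 1.74 CPM in Δ17,18 (−1.22 ± 0.30, adjusted p = 0.0478). Its adjusted p was 0.058 and 0.18 without Δ17,18,92 replicates 1 and 2, and 0.29 and 0.056 without Δ17,18 replicates 2 and 3.

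Signalling and stress lists had no calls by edgeR: 0 of 33 genes of TGF-β and BMP signalling (4 at an unadjusted p under 0.05, 1 by DESeq2), 0 of 16 of Notch and neuregulin signalling (3 and 1), 0 of 32 of the cell cycle (8 and 2), 0 of 18 of the p53 response (2 and 0), 0 of 18 of hypoxia and glycolysis (5 and 0), 0 of 17 of the extracellular matrix (4 and 1) and 0 of 17 immediate early genes (4 and 0). The 12 genes of the microRNA machinery had none called either (5 and 2) and none above 0, with a median of −0.08. Xpo5, the nuclear exporter of microRNA precursors, had 96.5, 109.9 and 98.3 CPM in Δ17,18,92 and 116, 109.9 and 115 CPM in Δ17,18 (−0.16 ± 0.05, adjusted p = 0.0925). Lists of the second heart field (13 tested genes), visceral endoderm (7), neural crest (10), somites (4) and foregut endoderm (7) also had none called; at an unadjusted p under 0.05 they held 0, 1, 1, 3 and 1 genes, and DESeq2 called 0 in each.

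The same loss on an intact cluster, Δ92 against wild type, gave most miR-92 messages the same sign in hearts that share no library with the comparison above. There edgeR called 10 genes higher (0.0597% of those tested) and 2 lower (0.0119%), 0.0716% in all. Of the 27 genes with an 8mer that rose in Δ17,18,92, all 27 had a positive log2 fold change in Δ92, with 4 called and a median of 0.21, against 68.8% positive among all 382 genes with an 8mer and 50.0% of all genes tested. Of the 53 increases without an 8mer, 41 were positive, 4 called, with a median of 0.08. Of the 36 decreases, 23 were negative and 1 was called, Igfbpl1, which fell in both (−0.33 ± 0.07 in Δ17,18,92 over Δ17,18 and −0.36 ± 0.07 in Δ92 over wild type), the first without a call when Δ17,18 replicate 2 was left out (adjusted p = 0.064).

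Among the genes called on both backgrounds were 1700020I14Rik, Fndc3b, Dkk3 and Myo1c. 1700020I14Rik stood at 492 to 506 CPM in Δ92 hearts against 332 to 353 CPM in wild-type hearts, a log2 fold change of 0.55 ± 0.05 (adjusted p = 3.5e-08). Fndc3b had 158 to 181 CPM in Δ92 and 122 to 133 CPM in wild type (0.41 ± 0.07, adjusted p = 0.0113). Dkk3 had 149 to 167 CPM in Δ92 and 118 to 124 CPM in wild type (0.41 ± 0.07, adjusted p = 0.00889). None of these 3 overlapped between Δ92 and wild type, and neither did Myo1c (0.28 ± 0.05, adjusted p = 0.00889). Atp7a, a copper transporter, and the 8mer genes Gla, the lysosomal α-galactosidase, and Man2a1, a Golgi mannosidase, were also called on both, and were chosen after their values were seen. Atp7a had 56.2 to 61.5 CPM in Δ92 and 37.8 to 42.2 CPM in wild type (0.53 ± 0.08, adjusted p = 0.00116), beside 62.6, 48.6 and 56.7 CPM in Δ17,18,92 and 41.4, 42.7 and 48.1 CPM in Δ17,18 (0.34 ± 0.07, adjusted p = 0.0255). In the Δ17,18 background the Atp7a call ended without Δ17,18,92 replicate 1 (adjusted p = 0.078) or 3 (0.07) and without Δ17,18 replicate 2 (0.16), that of Man2a1 without Δ17,18 replicate 2 (0.077), and that of Gla whichever library was left out (0.054 to 0.14). Atp7a and Gla lie on chromosome X. Xist, the RNA that silences one X chromosome in female cells, stood at 1334, 1155 and 1164 CPM in Δ92 and at 12.4, 1311 and 16.7 CPM in wild type, so all 3 Δ92 libraries and 1 wild-type library were high. Xist was high in 1 Δ17,18,92 library and 2 Δ17,18 libraries, and its part in these calls was not tested. Gpr180 gave 0.22 ± 0.09 (adjusted p = 0.695), and Pecam1, Pros1 and Uggt2 gave 0.05, 0.08 and −0.03, none of them called. The difference between the 2 losses was itself tested. By edgeR 0 genes passed, 0% of 16750, with 1369 at an unadjusted p under 0.05, while DESeq2 called 5: Ptk2b, Uggt2 and Tmem123, with a larger value on the Δ17,18 background, and Phyhip and Car12, with a lower one. By edgeR the difference was 0.65 ± 0.12 for Ptk2b (adjusted p = 0.0536) and 0.68 ± 0.13 for Uggt2 (adjusted p = 0.062).

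**Figure D3:**
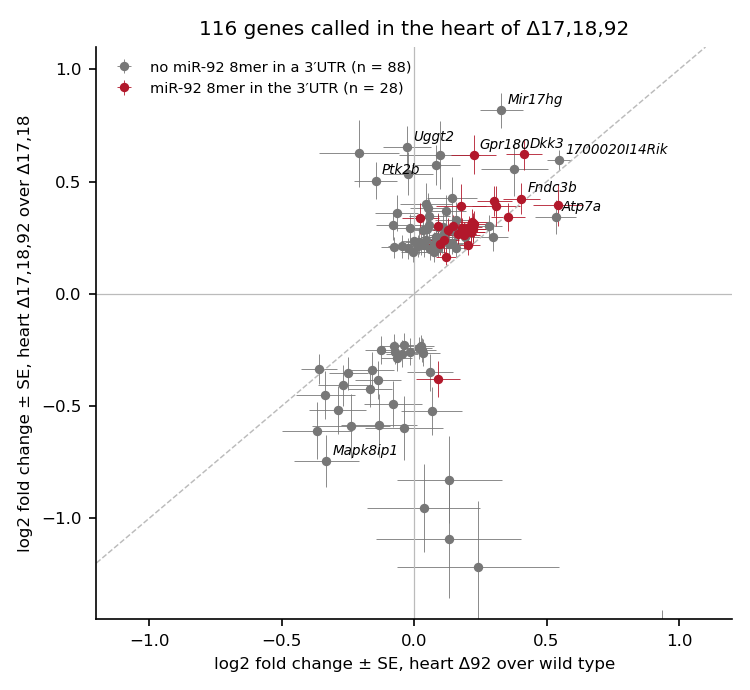
Log2 fold change of the 116 genes called in Δ17,18,92 over Δ17,18 hearts (vertical axis) against that of Δ92 over wild-type hearts (horizontal axis), with SE bars; red genes hold a miR-92 8mer, the dashed line marks equal values, and 4 genes lie outside the axes. The red genes that rose sit to the right of 0 in all 27 cases.

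Levels in wild type show which side of the comparison moved, as a description, since the genes were picked for a difference between 2 of the groups. Among the 27 increases with an 8mer, all Δ17,18,92 libraries lay above all wild-type libraries in 24, while all Δ17,18 libraries lay below wild type in 9 and above it in 0. The Δ92 libraries lay above wild type in 25 and those of the full knockout, which lacks the whole cluster, in 18. Among the 53 increases without an 8mer, Δ17,18,92 lay above wild type in 39 and Δ17,18 below it in 26, and Δ92 lay above it in 19. For these 53 the full knockout lay above wild type in 19 and below it in 13. Among the 36 decreases, Δ17,18,92 lay below wild type in 19 and Δ17,18 above it in 18. The full knockout lay below wild type in 5 of the 36 and above it in 12. For scale, over all tested genes Δ17,18,92 lay above wild type in 10.1% and below it in 8.97%, and Δ17,18 lay above it in 9.04% and below it in 8.35%. Δ92 lay above wild type in 5.99% of all tested genes and in 19.9% of all those with an 8mer, and the full knockout in 12.4% and 36.6%. Below wild type, the full knockout lay in 12.3% of all tested genes. Gpr180, Ptk2b, Uggt2 and Esd are examples of increases in which Δ17,18 was the low group: wild-type hearts held 23.5 to 27.9, 43.5 to 61.3, 36.9 to 41.0 and 47.0 to 50.4 CPM of them, all above the Δ17,18 range.

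The same pair of genotypes was also sequenced in the other dissected tissues, with 2 Δ17,18,92 libraries for the rest of the embryo and 3 in every other group. Nearly all heart increases had the same sign there, and those with an 8mer were often called again. In tail bud edgeR called 94 genes higher (0.553%) and 20 lower (0.118%), 0.67% of those tested. In the rest of the embryo it called 332 higher (1.9%) and 109 lower (0.622%), 2.52% in all. Of the 27 heart increases with an 8mer, 27 were positive in tail bud, 20 of them called, and 26 in the remaining embryo, 24 of them called, with medians of 0.30 in heart, 0.38 in tail bud and 0.39 in the remaining embryo. Tagap1 was the exception in the rest of the embryo. Of the 53 increases without an 8mer, 51 and 52 were positive, with 10 and 17 called. Of the 36 decreases, 35 were tested in each tissue; 30 and 29 were negative, with 4 and 7 called. Whether a heart and a tail bud library came from the same embryos is not given in the labels.

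Dkk3 rose by 0.76 ± 0.10 in tail bud (adjusted p = 0.00014) and by 0.97 ± 0.10 elsewhere in the embryo (adjusted p = 3.85e-07). Fndc3b gave 0.70 ± 0.08 (adjusted p = 1.85e-05) and 0.79 ± 0.05 (adjusted p = 4.75e-13), and Gpr180 0.73 ± 0.08 and 0.71 ± 0.08. Itga5, whose heart call was unsteady, rose by 0.37 ± 0.04 (adjusted p = 1.85e-05) and 0.57 ± 0.05 (adjusted p = 5.4e-09). Mapk8ip1 fell by 0.30 ± 0.07 and 0.42 ± 0.09 on the log2 scale. Uggt2, at 0.20 ± 0.08 (adjusted p = 0.387) and 0.10 ± 0.06 (adjusted p = 0.449), and Pecam1 in tail bud, at 0.21 ± 0.09, did not pass. The gene 4932438A13Rik, which fell in heart, rose in the remaining embryo (0.24 ± 0.05, adjusted p = 0.0042). No difference between tissues passed by edgeR, 0% of the 18164 genes tested in either contrast: for heart minus tail bud 1451 genes had an unadjusted p under 0.05 and DESeq2 called 41, and for heart minus the rest of the embryo the counts were 1311 and 35. Without Δ17,18,92 heart replicate 3, edgeR called 45 and 32 in the same contrasts. The DESeq2 calls included Uggt2 in both, with larger values in heart (0.47 ± 0.12 and 0.56 ± 0.12). For heart minus the rest of the embryo they also included 1700020I14Rik (0.27 ± 0.05, DESeq2 adjusted p = 5.87e-05). Lower in heart in that contrast were Cacna1d (−0.84 ± 0.19) and 4932438A13Rik (−0.61 ± 0.15).

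**Figure D4:**
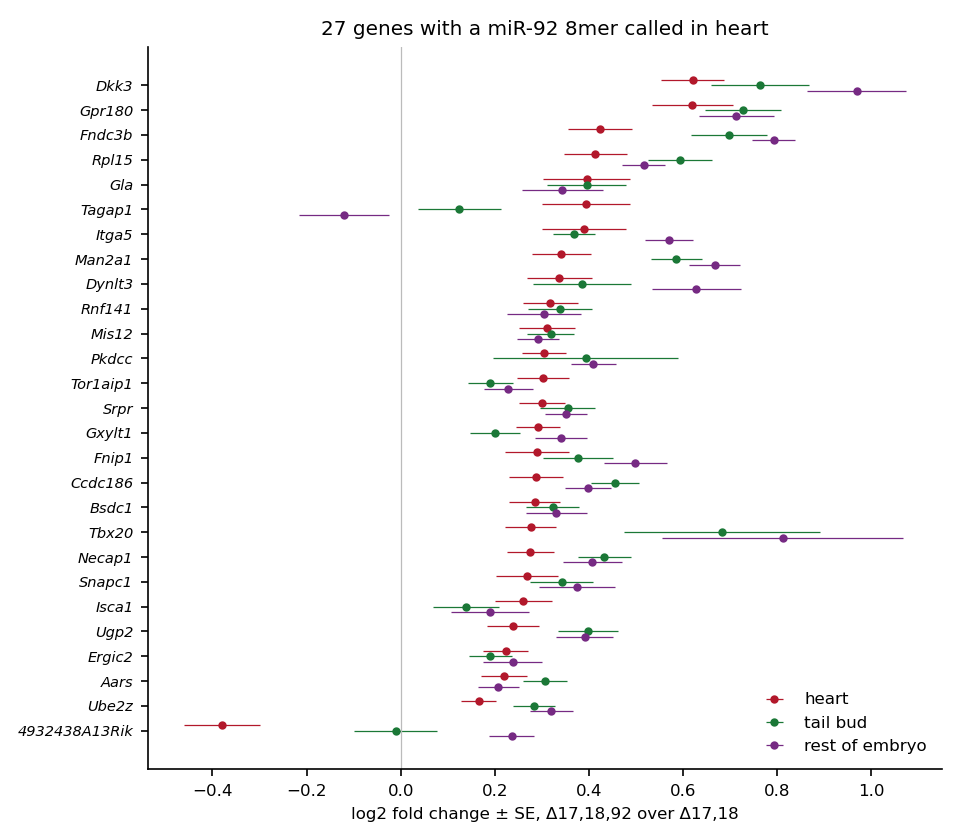
Log2 fold change ± SE of Δ17,18,92 over Δ17,18 in heart, tail bud and the rest of the embryo for 27 of the 28 genes with a miR-92 8mer called in heart, ordered by the heart value. Among the plotted genes that rose in heart, all but Tagap1 lie to the right of 0 in all 3 tissues.

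Genes of chromosome 14, which carries the cluster, were called more often than those of any other chromosome. Of its 546 tested genes 16 were called, 9 higher and 7 lower, or 2.93%, against 0.693% of all genes tested and 1.00% on chromosome 6, the next highest. Within 5 Mb of Mir17hg 4 of 12 tested genes were called: Mir17hg, Gpr180 at 3.09 Mb, Dzip1 at 3.83 Mb and Uggt2 at 3.94 Mb, of which Gpr180 holds a miR-92 8mer. The other 12 lie more than 20 Mb away: 5 of 111 tested genes between 20 and 50 Mb were called, and 7 of 377 further off. Between 20 and 50 Mb lie Ptk2b, Tnfrsf10b, Phyhip, Itm2b and Esd, none with an 8mer. Cacna1d, Eaf1, Ogdhl, Supt16, Carmil3, Tnfrsf10b, Itm2b and Dzip1 lost their call without Δ17,18 replicate 2. Mir17hg, Gpr180, Uggt2, Rpl15, Ppp3cb, Ptk2b, Phyhip and Esd kept theirs whichever library was left out. Over all chromosomes, 24 of the 80 higher and 5 of the 36 lower genes kept their call without Δ17,18 replicate 2. Dzip1 had 20.0, 17.8 and 17.3 CPM in Δ17,18,92 against 26.6, 27.8 and 25.0 CPM in Δ17,18 (−0.52 ± 0.11, adjusted p = 0.0161). Wild-type hearts held 14.9 to 17.2 CPM of it, so here Δ17,18 is the high group, and the adjusted p was 0.081 and 0.084 without Δ17,18,92 replicates 2 and 3 and 0.13 without Δ17,18 replicate 2. The sequence of this chromosome in the 2 alleles was not examined here, and its part in these calls was not tested.

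**Figure D5:**
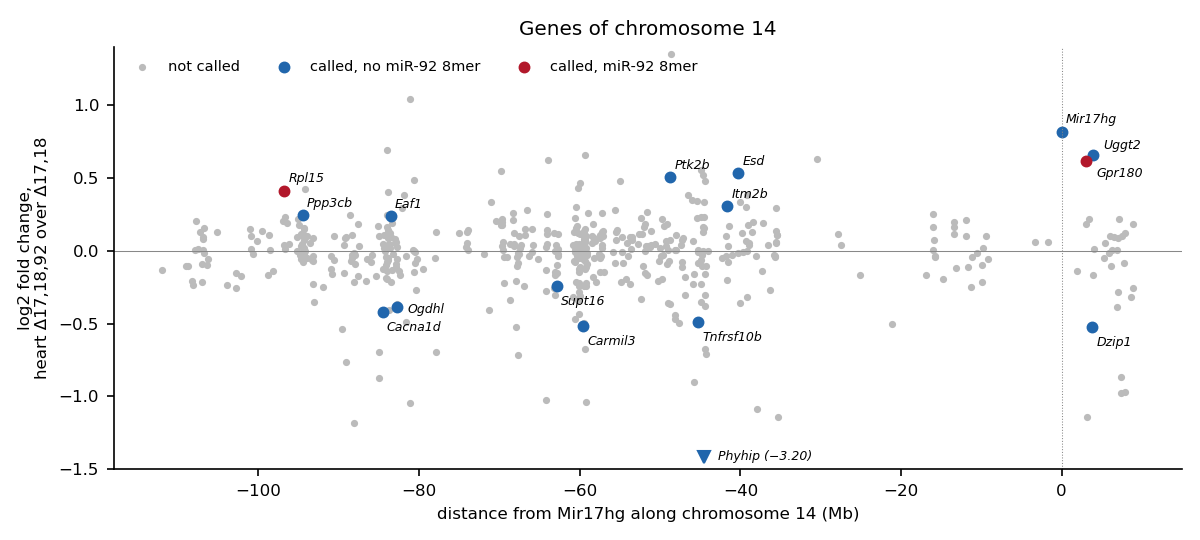
Log2 fold change of Δ17,18,92 over Δ17,18 hearts for the tested genes of chromosome 14, by distance in Mb from the start of Mir17hg (dotted line); grey genes were not called, and called genes are named. Mir17hg, Gpr180 and Uggt2 rose and Dzip1 fell within 5 Mb; Phyhip, at −3.20, is drawn as a triangle at the axis end of −1.5, and 7 genes that were not called lie outside the axes.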

How the data were processed

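Gene expression was measured by RNA sequencing, and the deposited table holds raw read counts for each gene and library, without normalisation. The counts came from single reads of 50 bases per the labels, and the tools that the submitters' processing notes name are featureCounts (Subread 1.4.2), STAR 2.3.0 and SAMtools 0.1.14, with the NCBIM37 and mm9 builds. The annotation release, strand setting and treatment of multi-mapping reads are not given in the sources used here, so overlapping, antisense and near-identical genes are uncertain. Sample titles gave the groups and replicate numbers; the 12 heart libraries of the 4 genotypes used held 13532012 to 27477273 counts, and no row lacked a gene.

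All 24 heart libraries entered 1 edgeR fit (version 4.0.16 under R 4.3.3) with a mean per genotype, the filterByExpr filter, TMM normalisation and a robust quasi-likelihood test at a Benjamini-Hochberg threshold of 0.05. It tested 16750 genes with a biological coefficient of variation of 8.87%. The contrasts were Δ17,18,92 minus Δ17,18, Δ92 minus wild type and their difference; tail bud and the rest of the embryo were fitted the same way, and a joint fit tested the differences between tissues. Log2 fold changes are ± SE, and CPM uses TMM factors. The scripts were checked on simulated counts. DESeq2 1.42.0 was an alternative tool, and other normalisation, filters, libraries left out and a replicate block were tried. The series text calls the libraries biological triplicates. The p-values rest on the spread between libraries within groups. In the heart fit this spread was estimated over all 24 libraries and not only over those compared.

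Symbols, 3′UTRs (the longest per gene, for 19751 genes) and positions came by gene ID from GENCODE M21 on GRCm38, which matched 32897 of the 37620 IDs; the deposited table has no coordinates. Matches to the seeds of miR-17, miR-18, miR-19 and miR-92 were searched on the transcript strand as 8mers (GCACTTTA, GCACCTTA, TTTGCACA and GTGCAATA) and 7mer-m8 sites.

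The members and gene lists were chosen with earlier results of these data known. Genes named were Mir17hg, Bcl2l11, Itga5, Hand2, Atp2a2, Cdkn1c and Mylip; up to 12 per direction by largest change among called genes whose mean log2 CPM was 2 or more and whose groups did not overlap; up to 8 that rose and 4 that fell with a miR-92 8mer, by smallest p; and up to 3 called members of each list. Other called genes were named after their values were seen. Some genes that met these rules are not reported here.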

Additional observations from a re-analysis of the deposited data

How the results depend on the processing

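The direction of the 116 called genes held in every alternative that gave a value; the numbers of calls did not. Against 80 higher and 36 lower genes, RLE factors gave 73 and 35, a mean log2 CPM of at least 3 gave 102 and 39, and transcript length as an offset, added after seeing the data, gave 71 and 22. DESeq2 called 217 and 106, and fitting only the 6 libraries called 8 and 5. The DESeq2 calls held 72 of the 80 higher and 18 of the 36 lower genes. For the other 8 and 18 DESeq2 gave no adjusted p. No filter on low counts gave 319 and 569, of which 0 and 57 were outside the genes tested otherwise. Leaving out 1 library gave 25 to 200 higher and 6 to 177 lower genes, 0 to 11 genes for the difference between the losses, 0 to 45 for heart minus tail bud and 0 to 32 for heart minus the rest of the embryo. DESeq2 called 5, 41 and 35 in those 3 contrasts. The cause of these shifts was not tested.

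The difference in median between miR-92 8mer genes and genes without a match, 0.0431, stayed positive: 0.0237 to 0.0610 with a library left out, 0.00774 with 7mer-m8 sites included, 0.0763 without matches of other families and 0.0772 with the length offset. The libraries were not treated as pairs by replicate number. The deviations of same-numbered libraries correlated at −0.10, −0.05 and 0.10, and those of differently numbered libraries at −0.10 to 0.16. Such weak values from 3 libraries per group cannot decide whether libraries shared a litter or a batch. With the replicate block 72 genes were higher and 30 lower, the median difference was 0.0437, and 0 genes passed in the 3 contrasts of differences. Δ92 against wild type was not refitted without single libraries.

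Of named genes that were not called, 6 changed sign with a library left out: Atp2a2 ran from −0.0162 (without Δ17,18 replicate 1) to 0.0653, Cdkn1c from −0.19 to 0.0294 (without Δ17,18 replicate 1), Mylip from −0.0746 (without Δ17,18,92 replicate 3) to 0.18, Gata1 from −1.18 to 0.83 and Klf1 from −1.34 to 0.70 (both without Δ17,18 replicate 3), and Tmem245 from −0.11 to 0.0642 (without Δ17,18,92 replicate 3), with 0.05 without Δ17,18 replicate 2 and 0.14 with the length offset.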

Other observations

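Some families of housekeeping genes, chosen after their values were seen, leaned to one side. Of 36 tested proteasome subunit genes all 36 had a positive log2 fold change in Δ17,18,92 over Δ17,18 hearts, with a median of 0.14 against 0.02 in Δ92 over wild type, and 4 rose: Psma1, Psma2, Psma4 and Psmc2. Over all tested genes 49.3% had a positive value and 0.478% rose. Psma1 stood at 197, 206 and 216 CPM in Δ17,18,92 and at 185, 163 and 185 CPM in Δ17,18. Without Δ17,18 replicate 2, the lowest library, its adjusted p was 0.26, and without Δ17,18,92 replicates 2 and 3 it was 0.092 and 0.15. Psma2 lost its call in 3 of the 6 fits that left out a library, and Psma4 and Psmc2 in 4 each, with adjusted p of up to 0.205, 0.19 and 0.22. Among 76 mitochondrial ribosomal protein genes 68 were positive (median 0.08) and 2 rose, Mrpl47 and Mrpl18, which lost their call in 3 and 4 of those fits. Among 36 complex I subunit genes 33 were positive (median 0.09, Ndufa5 higher), and among 74 cytosolic ribosomal protein genes 53 were (median 0.08, Rpl15 higher).

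The fold change also differed by transcript length, and much of this came with 1 library. From the shortest to the longest quartile of tested genes by longest transcript, the median log2 fold change was 0.04, 0.02, 0.005 and −0.05, with 15, 22, 25 and 17 genes higher and 1, 5, 8 and 21 lower. The median longest transcript was 3303 bases for genes that rose, 5114 bases for genes that fell and 3118 bases for all tested genes. The mean log2 CPM of the longest quartile minus that of the shortest was 2.77, 2.71 and 2.62 in Δ17,18,92 and 2.71, 2.79 and 2.76 in Δ17,18. The difference between the group means was −0.0560 with all libraries, −0.0142 without Δ17,18,92 replicate 3 and −0.0909 without Δ17,18,92 replicate 1. Without Δ17,18 replicate 2 it was −0.0379. These checks were added after seeing the data.

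Of the 80 increases, Δ17,18,92 lay above all 21 other heart libraries in 14, and of the 36 decreases Δ17,18 lay above all 21 others in 6, Phyhip and Mapk8ip1 among them. Over all tested genes Δ17,18,92 lay above all other heart libraries in 0.531% and Δ17,18 in 0.149%. The 80 and the 36 genes were picked for a difference between Δ17,18,92 and Δ17,18, which by itself makes such positions more frequent. The values for all tested genes therefore cannot show an excess, and these numbers are given as a description.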
